A study of Mus musculus with 8 samples.

Results

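This is an account of 10 genes of metal binding, iron storage and oxidative stress defence in the cells of mouse lung tumors. They are the metallothioneins Mt1 and Mt2, the heme oxygenase Hmox1, the ferritin genes Fth1 and Ftl1, and Slc7a11, Srxn1, Txnrd1, Gclm and Sod2. They were chosen by symbol from the 27923 genes in the tables of unique molecular identifiers (UMIs, tags that count each captured mRNA molecule once), and all 10 have a row in every table. The question was in which cells of the tumor these genes were expressed and whether their levels differed between the tumor's edge and the tumor as a whole.

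The tumors came from the KP model, KrasLSL-G12D/+; p53 fl/fl chimeric mice made from C57BL/6 embryonic stem cells injected into albino C57BL/6 blastocysts. Tumors were started at 12 weeks of age with intratracheal Adeno-SPC-Cre, in which the surfactant protein C promoter restricts Cre to alveolar type II cells, and were dissected 16 weeks later from 2 mice, a male and a female. Apart from the mouse and its sex, all of this is shared by all groups, and no untreated lung or animal without Cre was measured. Tumor sections were loaded with calcein NVOC, a dye that fluoresces after light has removed its cage, the edge was illuminated, and fluorescent cells that also took up a viability dye were sorted (Healthy/Tumor Border, 1 library per tumor). Cells that had not been photoactivated gave the Whole Tumor libraries, 3 technical replicate arrays of each tumor. All 8 libraries were made with Seq-Well, in which cells and barcoded beads meet in microwells.

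The tables held 4343 barcodes, of which 3894 had at least 200 genes and were kept. The deposited UMIs ranged from 405627 to 2029200 a library, and the median per kept cell from 675.5 in array 2 of Tumor 2 to 2526 in array 2 of Tumor 1. The median share of mitochondrial UMIs was 2.92% to 6.57%. Libraries shared 10 barcode sequences, which 56 of all 4343 barcodes carried, before the removal of those under 200 genes. In all 8 tables, cells are named for Tumor 2 where the label says Tumor 1 and the reverse. Groups here follow the labels, under which the number of barcodes in each tumor and region equals the number of cells the study states for it. If the cell names were right instead, Tumor 1 and Tumor 2 would change places throughout. The arrays of a tumor are technical repeats of 1 mouse, so each p-value below measures the spread between arrays and not between mice. The single Border library of a tumor is assumed to vary like the arrays.

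Metallothioneins are small proteins rich in cysteine that bind zinc and copper, and their genes are switched on by the zinc sensor MTF1 at metal response elements. Ferritin is a shell of heavy (Fth1) and light (Ftl1) chains that stores iron, and much of its control lies in translation, which mRNA counts do not show. Heme oxygenase 1 breaks heme down to iron, biliverdin and carbon monoxide. The transcription factor NRF2 (Nfe2l2) binds antioxidant response elements together with small MAF proteins and raises genes that make glutathione and keep thiols reduced, and BACH1 holds some of them down. In lung, alveolar macrophages recycle iron and surfactant, and neutrophils make large amounts of oxidants with their NADPH oxidase.

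The metallothionein genes are neighbours on chromosome 8. In the GENCODE annotation of GRCm38 (mm10), Mt2 spans chr8:94172664-94173568 and Mt1 spans chr8:94179082-94180327, both on the plus strand, and Mt1 starts 5514 bases after the end of Mt2. Promoter windows of 250 bases before to 50 bases after the RefSeq start site (GRCm38.p6) were found for 9 of the 10 genes. They were searched on both strands for a metal response element core (TGCACNC or TGCGCNC) and for an antioxidant response element core (TGACNNNGC). The 2 metallothionein windows are shown because both genes hold several metal response cores and moved together across cell classes. In both, the metal response cores stand in capitals as they read on the plus strand.
Mt1, chr8:94178839-94179138, plus strand: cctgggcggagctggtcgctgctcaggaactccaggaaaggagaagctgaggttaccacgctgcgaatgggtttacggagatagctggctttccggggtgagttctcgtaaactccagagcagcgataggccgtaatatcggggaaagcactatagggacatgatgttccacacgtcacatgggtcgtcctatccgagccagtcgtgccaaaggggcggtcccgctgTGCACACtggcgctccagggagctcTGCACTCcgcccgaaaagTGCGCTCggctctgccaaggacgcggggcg
Mt2, chr8:94172368-94172667, plus strand: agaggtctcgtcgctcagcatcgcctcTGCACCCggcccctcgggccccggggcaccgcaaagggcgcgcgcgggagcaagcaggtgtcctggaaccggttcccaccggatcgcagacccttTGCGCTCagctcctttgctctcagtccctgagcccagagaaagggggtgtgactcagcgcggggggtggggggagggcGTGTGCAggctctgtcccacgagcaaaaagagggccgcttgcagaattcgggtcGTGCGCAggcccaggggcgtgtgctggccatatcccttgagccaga

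The Mt1 window held 3 metal response cores and the Mt2 window held 4. Of 32851 RefSeq promoter windows of the same length, 25.7% held at least 1 such core, 1.97% held at least 3 and 0.517% held at least 4. The Gclm window also held 3, and the Srxn1 window held 1. The antioxidant response core was found in 12.4% of all windows. It was found once each in the windows of Gclm, Srxn1 and Mt2 and in 1 of the 3 windows of Txnrd1, and in none of the windows of Mt1, Fth1, Ftl1, Slc7a11 and Sod2. The stretches of Gclm and Txnrd1 around this core, in capitals and read here on the plus strand, are shown because both genes are textbook NRF2 targets.
Gclm, chr3:122245393-122245461, plus strand: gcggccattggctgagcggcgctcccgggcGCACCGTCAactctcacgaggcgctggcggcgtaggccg
Txnrd1, chr10:82859084-82859152, plus strand: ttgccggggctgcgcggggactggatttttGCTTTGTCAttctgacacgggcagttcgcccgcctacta
A match describes these letters only, and its absence from a window says nothing of the gene's control elsewhere.

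Cells were assigned to classes by marker genes, none of which is among the 10 genes, and class names carry "-like". There were 1618 neutrophil-like cells, 279 C1q macrophage-like, 79 alveolar macrophage-like, 70 Mmp12 macrophage-like, 87 dendritic-like, 162 B cell-like, 136 T, NK or innate lymphoid-like and 174 Krt tumor-like cells, with other classes beside them. Of the 10 genes with the highest fold in a class, 8 were its markers in neutrophil-like cells, 6 in C1q macrophage-like cells, 5 in alveolar macrophage-like and dendritic-like cells, 4 in Krt tumor-like, B cell-like and T, NK or innate lymphoid-like cells and 3 in Mmp12 macrophage-like cells, whose leading genes also held 3 markers of alveolar macrophages, so that these classes are not sharply apart. The share of cells near the boundary to another class was 84.3% in Mmp12 macrophage-like, 40.2% in dendritic-like, 31.6% in alveolar macrophage-like, 17.2% in C1q macrophage-like and 5.44% in neutrophil-like cells. A further 845 barcodes with a median of 385 UMIs were led by satellite repeat transcripts. They entered the sums over all cells and the correlations over 14 classes, but no contrast between classes. Levels are UMIs of the gene per 1000000 UMIs of the class (CPM).

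The metallothionein genes were most abundant in alveolar macrophage-like cells, which bear the markers of the resident phagocytes of the air spaces. Mt1 stood at 4457, 2605 and 4253 CPM in the 3 arrays of Tumor 2 that held at least 10 of these cells, 3772 ± 1015 (SD, n = 3). Mt2 stood at 2137, 1991 and 2582 CPM in the same arrays, 2237 ± 308 (SD, n = 3). In Mmp12 macrophage-like cells, pooled levels were 2634 CPM for Mt1 and 1352 CPM for Mt2, and their ranges overlapped those of alveolar macrophage-like cells.

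Pooled levels of Mt1 were lower in the other classes. Mt1 was 776 CPM in C1q macrophage-like, 694 in Krt tumor-like and 297 in neutrophil-like cells, all pooled over libraries. C1q macrophage-like (533 to 1173 CPM) and Krt tumor-like cells (461 to 2430 CPM over 4 libraries) did not differ beyond their ranges. The Krt tumor-like range also reached into that of Mmp12 macrophage-like cells, 998 to 3676 CPM. Dendritic-like cells had 151 to 381 CPM in the Tumor 2 Whole arrays, above the 38.2 to 89.9 CPM of neutrophil-like cells in the same arrays. Fibroblast-like cells, 39 in number, had 931 CPM of Mt1 and 766 of Mt2 pooled over libraries. These were 206 and 95.1 CPM in the 12 cells of the Tumor 1 Whole arrays and 1848 and 1586 CPM in the 21 cells of those of Tumor 2. The 1 library with at least 10 of them, array 3 of Tumor 2, had 2194 CPM of Mt1 in 11 cells, and 2216 CPM of Mt2, which lay within the range of alveolar macrophage-like cells. B cell-like and T, NK or innate lymphoid-like cells had 139 and 123 CPM of Mt1, with an Mt1 UMI in 6.17% and 10.3% of cells. Whether such levels came from these cells or from free RNA in the wells was not tested. Over the Tumor 2 Whole arrays alone, B cell-like cells had 43.9, T, NK or innate lymphoid-like cells 64.4 and neutrophil-like cells 79.1 CPM of Mt1, and over those of Tumor 1 the values were 245, 136 and 269 CPM. The share of neutrophil-like cells with an Mt1 UMI was 14.5% over all libraries at a median of 2121 UMIs, against medians of 1995 and 2228 in the lymphoid classes.

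**Figure D1:**
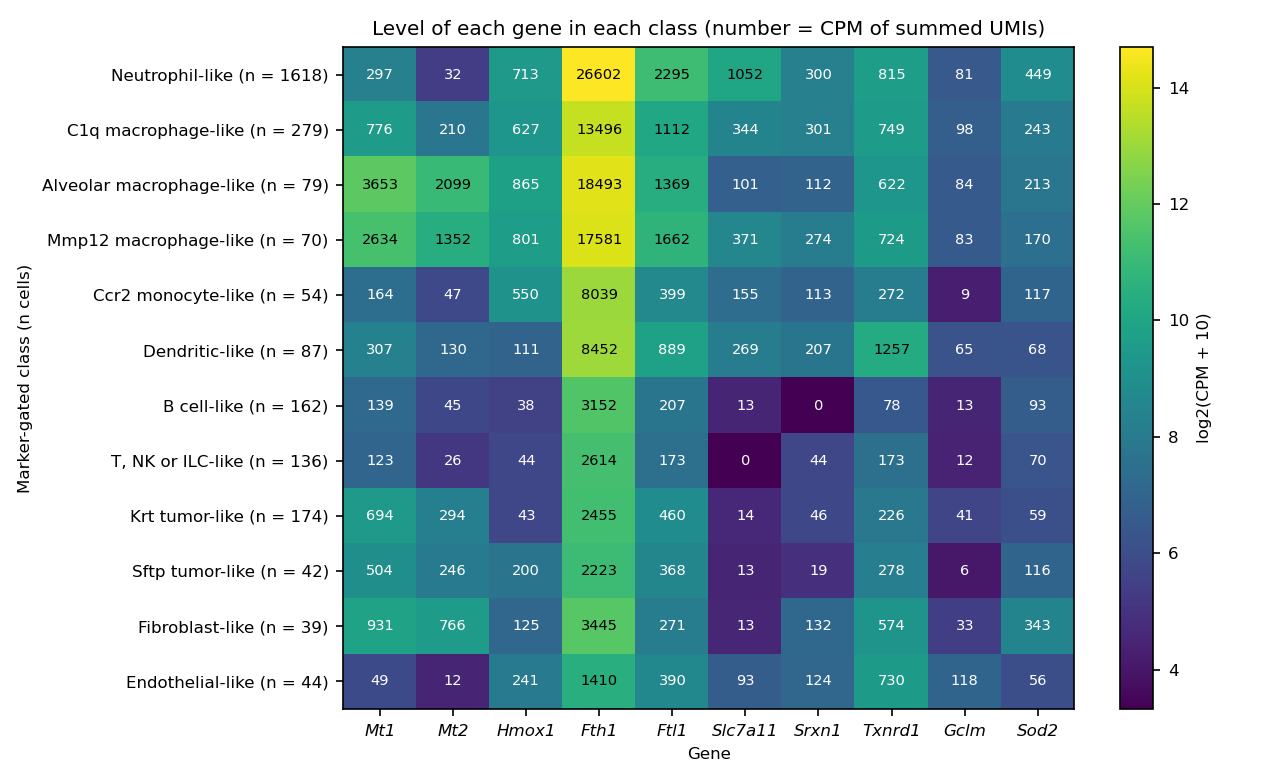
Heat map of each gene (columns) in each marker-gated class reported (rows, with the number of cells), coloured by log2(CPM + 10) and labelled with the CPM of UMIs summed over all libraries. Mt1 and Mt2 peak in alveolar macrophage-like cells (3653 and 2099 CPM), while Fth1 (26602 CPM) and Slc7a11 (1052 CPM) peak in neutrophil-like cells; colours should be compared down a column, since levels of different genes are not scaled to length.

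The iron storage genes followed the phagocytes. Fth1 (chr19:9980598-9985098, plus strand) was highest in neutrophil-like cells, at 18250 to 36823 CPM with a median of 25099 over the 8 libraries. It reached 18493 CPM in alveolar macrophage-like, 17581 in Mmp12 macrophage-like and 13496 in C1q macrophage-like cells, pooled over libraries. Each of these 4 classes overlapped in its range with the next of the classes reported. B cell-like cells had 3152 CPM of Fth1, and Krt tumor-like cells 2455 CPM with a range of 2070 to 2782. Every Krt tumor-like value therefore lay below every neutrophil-like value. Ftl1 (chr7:45457944-45459884, minus strand) was also highest in neutrophil-like cells, at 2295 CPM pooled, and ranged from 746 to 3519 CPM over libraries, which overlapped Mmp12 macrophage-like cells at 1662 CPM pooled. Ferritin genes have many near-identical copies in the genome, none of 3 Ftl1 copies has a row in the tables, and how the counting split such reads is not known, so both levels are uncertain to that extent.

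Hmox1 (chr8:75093621-75100589, plus strand) was found at similar levels in several myeloid classes. Alveolar macrophage-like cells had 786 to 852 CPM over 3 arrays, and the range of Mmp12 macrophage-like cells, 780 to 1204 CPM, overlapped them. Neutrophil-like cells had 713 CPM pooled and a range of 478 to 914, which overlapped both. Krt tumor-like, T, NK or innate lymphoid-like and B cell-like cells had 42.9, 43.9 and 37.8 CPM, at the low end of the order.

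Slc7a11, which encodes the transporter subunit that brings cystine into the cell for glutathione synthesis, was highest in neutrophil-like cells. It ranged from 579 to 1897 CPM there. Among Mmp12 macrophage-like cells, 1 of 3 libraries reached it with 1374 CPM. C1q macrophage-like cells had 344 CPM, alveolar macrophage-like cells 101 CPM and Krt tumor-like cells 14.3 CPM. No Slc7a11 UMI was found in 136 T, NK or innate lymphoid-like cells, which allows up to 8.78 CPM. The gene spans chr3:49892526-50443614 on the minus strand.

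The remaining genes of the thiol systems were spread over the myeloid classes, and Gclm and Txnrd1 were found in others too. Endothelial-like cells, 44 in number, had 118 CPM of Gclm pooled, the highest of the 14 classes, and 730 CPM of Txnrd1. In the 2 libraries with at least 10 of them, the ranges were 0 to 21.9 CPM for Gclm and 0 to 263 CPM for Txnrd1. Fibroblast-like cells had 574 CPM of Txnrd1 pooled. Gclm (chr3:122245557-122270732, plus strand), the regulatory subunit of the enzyme for the first step of glutathione synthesis, had 97.5 CPM pooled in C1q macrophage-like and 80.8 CPM in neutrophil-like cells, with overlapping ranges. Reads of Gclm and of Gm17494, an overlapping gene on the other strand with a row of its own, cannot be told apart without strand, and the use of strand is not given in the sources used here. Srxn1 (chr2:152105516-152111376, plus strand), which encodes sulfiredoxin and restores oxidised peroxiredoxins, had 301 CPM in C1q macrophage-like and 299.7 in neutrophil-like cells, with overlapping ranges. No Srxn1 UMI was found in 162 B cell-like cells, which allows up to 7.56 CPM. Txnrd1 (chr10:82833951-82897712, plus strand), thioredoxin reductase 1, was highest in dendritic-like cells at 1257 CPM pooled, and its range overlapped that of neutrophil-like cells at 815 CPM pooled. Sod2 (chr17:13006846-13040063, plus strand), the superoxide dismutase of mitochondria, had its highest pooled level in neutrophil-like cells, 449 CPM with a range of 277 to 572. C1q macrophage-like cells, at 165 to 635 CPM, overlapped them, and the 1 fibroblast-like library had 709 CPM.

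Correlations were taken over 14 classes with levels, the satellite-led barcodes among them. There log2(CPM + 10) of Mt1 and Mt2 correlated with Pearson r = 0.97 and that of Srxn1 and Txnrd1 with r = 0.87. For Fth1 and Ftl1 the value was r = 0.85, and for Slc7a11 and Ftl1 r = 0.86. Mt1 and Slc7a11 stood further apart, with r = 0.32. Among genes with at least 500 UMIs, the patterns nearest to Mt1 after Mt2 were those of Hsd17b12 (r = 0.92) and G6pdx (r = 0.89), and nearest to Fth1 those of Myo1f (r = 0.95), Csf2ra (r = 0.95) and Slc15a3 (r = 0.94). Nearest to Slc7a11 were Il1b (r = 0.92), Pla2g7 (r = 0.91) and Tlr13 (r = 0.90), and nearest to Hmox1 Bst1 (r = 0.89), Alas1 (r = 0.89) and C5ar1 (r = 0.88). Classes of the same libraries share depth and free RNA, so these values describe the order of the classes only.

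Differences between classes were then tested within libraries. Neutrophil-like and C1q macrophage-like cells were set against each other in the 5 libraries that held at least 10 of both, with the library as a block in edgeR's quasi-likelihood test and Benjamini-Hochberg adjustment over all 4402 genes tested. Metallothionein was lower in neutrophil-like cells, with a log2 difference of -2.54 ± 0.46 (SE) for Mt1 (adjusted p = 0.000396) and -4.03 ± 0.40 for Mt2 (adjusted p = 1.87e-06). Slc7a11 was higher by 2.62 ± 0.46 on the log2 scale (adjusted p = 0.000303). In the libraries themselves Mt1 was lower, and Slc7a11 higher, in neutrophil-like than in C1q macrophage-like cells in 5 of 5. Fth1 and Srxn1 were each higher by 1.04 (adjusted p = 0.0341 and 0.0188), but their calls were lost without the Tumor 2 Border or without any one of the Tumor 2 Whole arrays. In all, 5 of the 10 genes passed the threshold, where 44.1% of all genes tested did so, and Hmox1, Ftl1, Txnrd1, Gclm and Sod2 did not. Scaling to library totals in place of TMM factors changed the split of all calls from 1013 higher and 928 lower to 730 and 1049. Of 19 early-response and heat-shock genes that tissue dissociation is known to induce, 9 were higher in neutrophil-like cells and 0 lower. With library totals these were 5 and 0, and their part was not tested.

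The regulators and enzymes around these genes were called in both directions, where 44.1% of all genes were called. Of 17 measured NRF2 regulators and other targets, 6 were higher in neutrophil-like cells, among them Osgin1 (log2 difference 5.39), Nfe2l2 itself (1.97) and the NRF2 partner Maff (1.95), and 1 was lower, the biliverdin reductase Blvrb (-2.69), a share near that of all genes. Of 19 glutathione and thioredoxin genes 9 were higher, led by Msrb1 (3.68) and Chac1 (3.59), and 4 were lower, led by the catalase gene Cat (-2.89). Of 18 iron genes, 6 were higher, including the iron-withholding granule genes Lcn2 (10.26) and Ltf (10.18), and 7 were lower, including the haptoglobin-hemoglobin receptor Cd163 (-6.81) and transferrin, Trf (-2.98). The median difference over all genes tested was 0.04.

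Alveolar and C1q macrophage-like cells were compared in the 3 Tumor 2 Whole arrays, a contrast added after seeing the data. Mt1 was higher in alveolar macrophage-like cells by 1.80 ± 0.24 (SE, adjusted p = 0.000179, edgeR) and Mt2 by 2.55 ± 0.28 (adjusted p = 4.25e-05), each in 3 of 3 arrays. Slc7a11 was lower by 1.63 ± 0.44 (log2 difference -1.63, adjusted p = 0.0148) and Srxn1 by 1.06 ± 0.36 (log2 difference -1.06, adjusted p = 0.0391). Gclm was too low to be tested, so 4 of 9 genes passed, where 33.2% of all genes tested did so. The Srxn1 call was lost with library totals (adjusted p = 0.0688), without array 2 (adjusted p = 0.0623) and without array 3 (adjusted p = 0.467). Both lower calls were lost with DESeq2, and Slc7a11 was too low to be tested without array 3. Hmox1, Fth1 and Ftl1 differed by 0.37, 0.24 and 0.02 with SE of 0.27, 0.22 and 0.24, and did not pass. Of 18 early-response and heat-shock genes tested 10 were lower in alveolar macrophage-like cells and 0 higher, with sums of 175, 131 and 180 of 10000 UMIs against 286, 311 and 312 in the C1q macrophage-like cells of the same arrays, and their part was not tested.

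The other contrasts, likewise added after seeing the data, placed the remaining classes. Dendritic-like cells had less Hmox1 (log2 difference -2.28, adjusted p = 0.00053), Sod2 (-2.86, adjusted p = 0.000372), Mt1 (-1.83, adjusted p = 0.000472) and Mt2 (-1.15, adjusted p = 0.0383) than C1q macrophage-like cells in 4 libraries. These are 4 of 9 genes tested, where 27.4% of all genes were called, and the Mt2 call was lost without any one of the Tumor 2 Whole arrays. Of 19 early-response and heat-shock genes 6 were lower in dendritic-like cells and 0 higher, and 7 were lower with library totals. Their part was not tested. Krt tumor-like cells, compared with neutrophil-like cells in 4 Tumor 1 libraries, differed in 10 of 10 genes where 59.9% of all genes did. There Mt1 (1.21) and Mt2 (3.60) were higher and the other 8 lower, from -1.06 for Gclm to -5.57 for Slc7a11. The Gclm call was lost without the Border or without array 2 or 3. Of 19 early-response and heat-shock genes 14 were lower in Krt tumor-like cells and 1 higher, and their part was not tested. The planned contrast of Krt with Sftp tumor-like cells had only 1 library with 10 cells of both classes.

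**Figure D2:**
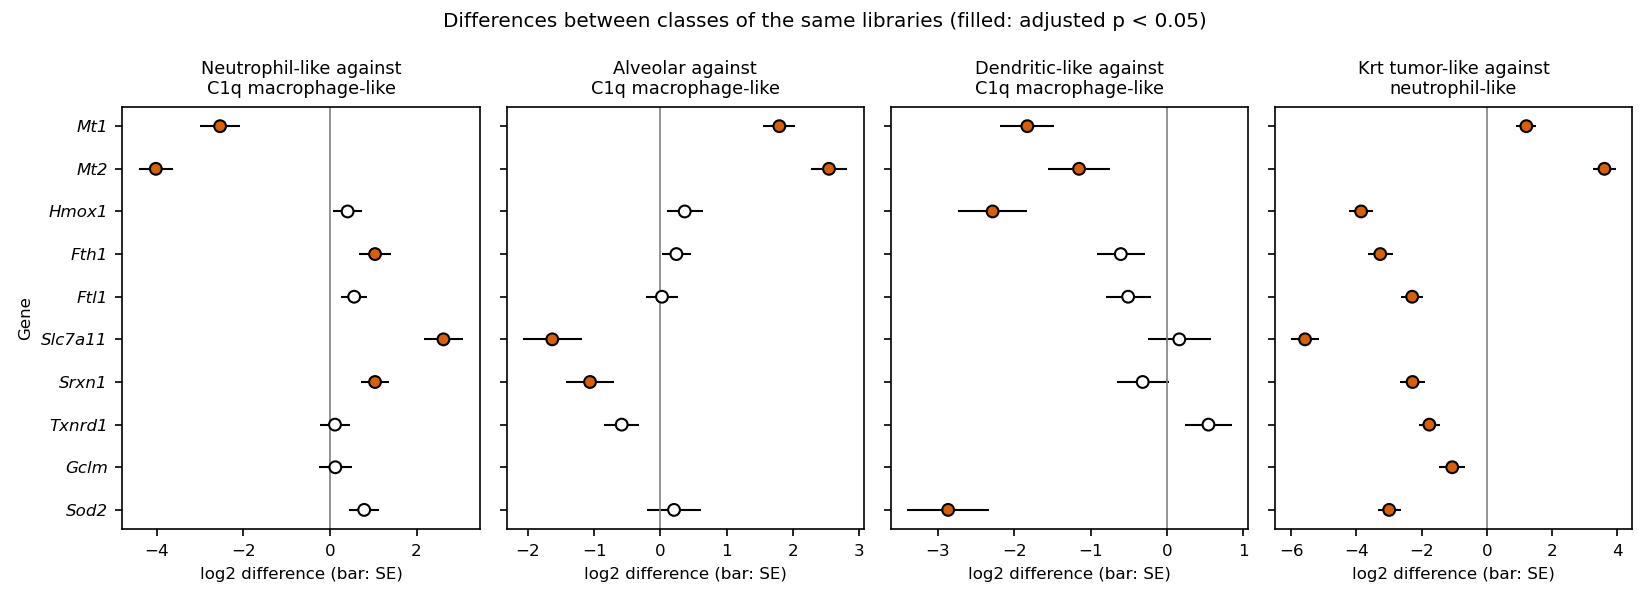
Log2 differences of each gene between pairs of classes within the same libraries (points, bars are SE, filled where the edgeR adjusted p is under 0.05; Gclm could not be tested in the middle panels). Neutrophil-like cells lie below C1q macrophage-like cells in Mt1 and Mt2 and above them in Slc7a11, and alveolar macrophage-like cells lie above C1q macrophage-like cells in Mt1 and Mt2.

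The neutrophil-like cells themselves fall into a Siglec-F type (534 cells, nearly all in Tumor 1, with 4 markers among its 10 leading genes), known from KP tumors, and a Retnlg type (936 cells, with 5) that carries genes of circulating neutrophils. In libraries that held at least 10 of both, the Siglec-F type had less Slc7a11 (log2 difference -0.78, adjusted p = 0.0146), Srxn1 (-0.78, adjusted p = 0.0281), Hmox1 (-0.72, adjusted p = 0.0462) and Fth1 (-0.48, adjusted p = 0.0475) than the Retnlg type, in edgeR. That is 4 of 10 genes lower, where 3.49% of all genes tested were lower. With library totals 0 of the 10 passed, and all calls changed from 14 higher and 156 lower to 58 and 58, each 1.30% of all genes. Leaving out array 3 of Tumor 1 Whole left 0 calls. Leaving out the Border of Tumor 1, the Border of Tumor 2 or array 2 of Tumor 1 Whole left 1 each, and leaving out array 1 of Tumor 1 Whole left 2. Of the 19 early-response and heat-shock genes that tissue dissociation is known to induce, 8 were also lower in the Siglec-F type, and 3 with library totals, and their part in the result was not tested. Mt1 did not pass (0.18 ± 0.26).

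The Border and Whole libraries were compared in neutrophil-like cells first, the class with enough cells in all 8 libraries (86 to 427 cells). In Tumor 1, Mt1 was 508 CPM at the Border and 390, 221 and 268 CPM in the Whole arrays. Mt2 was 75.5 CPM at the Border, from 81 UMIs, and 39.8, 8.53 and 14.5 CPM in the Whole arrays, from 29 UMIs in all. Fth1 was 36823 CPM at the Border and 21291, 18250 and 21419 CPM in the Whole arrays. The Border value lay above every array for these genes.

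The same held for Ftl1, at 3519 CPM against 1617 to 2344 CPM in the arrays, and for Hmox1, at 855 against 541 to 730 CPM. Slc7a11 was 986 against 579 to 842 CPM, Srxn1 272 against 138 to 228 CPM, and Txnrd1 889 against 573 to 824 CPM. Sod2 was 572 against 388 to 497 CPM. Thus 9 of 10 genes lay above all 3 arrays, as did 11.6% of all genes tested. Gclm, at 82.0 CPM between 61.1 and 126 CPM, lay among them.

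In the edgeR fit with TMM factors, the same 9 genes passed the threshold as higher, where 7.34% of all 6362 genes tested were called higher. The log2 changes were 2.59 ± 0.47 (SE) for Mt2 (adjusted p = 3.08e-05), 1.40 ± 0.23 for Fth1 (adjusted p = 5.54e-06), 1.39 ± 0.26 for Ftl1 (adjusted p = 5.23e-05) and 1.36 ± 0.27 for Mt1 (adjusted p = 0.000232). Srxn1 (1.05), Slc7a11 (1.03), Hmox1 (1.01), Sod2 (0.91) and Txnrd1 (0.85) followed, with adjusted p from 0.00221 to 0.025. These folds exceed the ratios of the CPM values because the scale differs. With library totals the median change of all genes went from -0.08 to -0.64, and all calls from 467 higher and 105 lower to 189 and 1031. On that scale, where 2.97% of all genes were called higher, Mt2 (2.04), Fth1 (0.84), Ftl1 (0.83) and Mt1 (0.80) still passed and the other 5 did not. With only cells of at least 500 genes Mt2 (2.67) and Mt1 (1.36) passed, and the changes of the other 7 were 0.83 to 1.35. The Srxn1 call was lost without array 3 (adjusted p = 0.0553, edgeR) and the Txnrd1 call without array 1 (adjusted p = 0.0857, edgeR). The Txnrd1 call was also lost with DESeq2 and with a stricter marker gate, and held in 5 of 10 alternatives.

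The other genes of these systems were called in part in Tumor 1, where 7.34% of all genes were called higher. Of 16 iron genes tested, 5 were higher at the Border and 0 lower, the siderophore binder Lcn2 (1.81), the phagosomal iron exporter Slc11a1 (1.75), lactoferrin Ltf (1.64), the iron sensor Fbxl5 (1.37) and the mitochondrial iron importer Slc25a37 (1.05). Of 19 NRF2 regulators and other targets, 4 were higher and 0 lower, with Maff (1.89), Mafk (1.26), Sqstm1 (1.13) and Esd (1.12), and the list's median was 0.09, against -0.08 over all genes. Of 19 glutathione and thioredoxin genes, 2 were higher, Txnip (1.00) and Msrb1 (0.78), and 17 did not pass. Of 7 zinc genes 0 passed. Of 6 NADPH oxidase genes 1 was lower, Cybb (-1.58), its catalytic subunit. With library totals, Sqstm1, Esd, Slc25a37, Txnip and Msrb1 no longer passed. The counts became 4 higher and 3 lower for iron, 2 and 6 for NRF2, and 0 and 2 for glutathione and thioredoxin genes. On that scale 2.97% of all genes were called higher, and 1031 of 6362 were called lower.

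Early-response and heat-shock genes also moved with them. Of 19 such genes 11 were higher at the Tumor 1 Border and 0 lower, led by Dusp1 (2.81) and Ier3 (2.60). Summed, they made up 430 of 10000 UMIs in neutrophil-like cells of the Border and 283, 314 and 351 in the arrays. Markers of alveolar macrophages made up 4.45 of 10000 UMIs at the Border and 6.77, 5.69 and 6.98 in the arrays. Apoe, a macrophage gene, stood at 14.0 CPM in the Border's neutrophil-like cells and at 664, 81.0 and 145 CPM in the arrays. The part of these in the result was not tested.

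**Figure D3:**
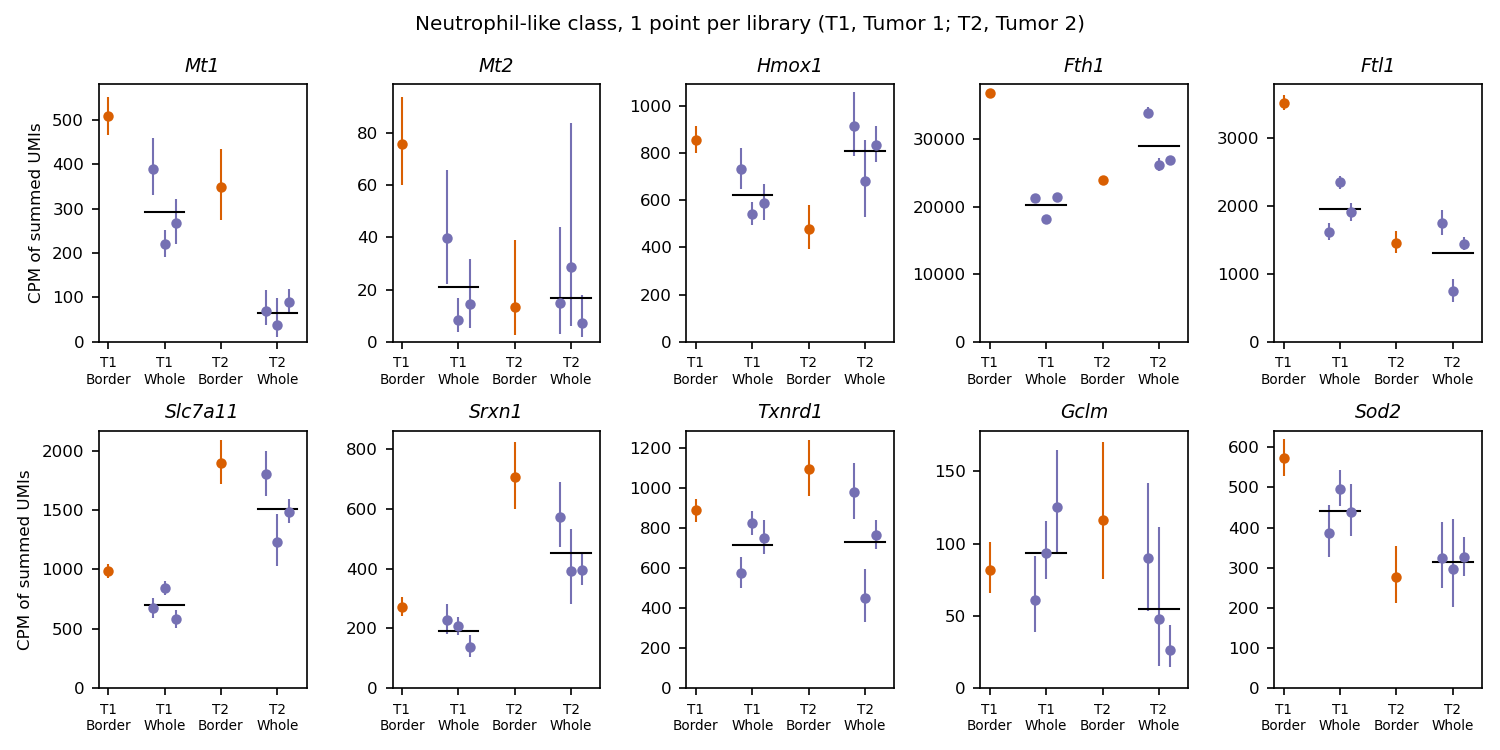
CPM of each gene in neutrophil-like cells, 1 point per library, with exact 95% Poisson intervals that cover counting error only; black lines are the mean of the 3 Whole arrays of a tumor. In Tumor 1 the Border point lies above all Whole arrays for every gene but Gclm, while in Tumor 2 Hmox1, Fth1 and Sod2 lie below them.

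The pattern was not repeated in Tumor 2. There Mt1 was 348 CPM at the Border and 69.9, 38.2 and 89.9 CPM in the Whole arrays, well above all 3. Hmox1 was 478 CPM at the Border and 914, 679 and 834 CPM in the arrays, below all 3. Fth1 was 23927 CPM at the Border and 33927, 26272 and 26931 CPM in the arrays, also below all 3. Slc7a11 at 1897 CPM (arrays 1233 to 1802), Srxn1 at 705 (392 to 574), Txnrd1 at 1094 (449 to 978) and Gclm at 116 CPM (26.4 to 89.9) lay above. Sod2 at 277 CPM (296 to 326) lay below, and Ftl1 and Mt2 lay within. That is 5 of 10 genes above all arrays and 3 below, where 51.0% of all genes tested lay above and 17.3% below, so the count above is near that of all genes.

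Of these, Mt1 passed as higher (log2 change 1.75 ± 0.36 SE, adjusted p = 0.000513, edgeR) and Hmox1 as lower (-1.21 ± 0.30, adjusted p = 0.0046). That is 1 of 10 genes in each direction, where 3.47% of all genes were called higher and 5.75% lower. Fth1 (-0.70, adjusted p = 0.0729, edgeR) did not pass. It passed as lower in 3 alternatives, with DESeq2, with at most 25% mitochondrial UMIs and without array 2 (adjusted p = 0.00796, edgeR). With library totals the median change of all genes went from 0.07 to 0.54 and all calls from 221 higher and 366 lower to 690 and 175. On that scale, where 10.8% of all genes were called higher, Mt1 (2.22) passed and Hmox1 (-0.76) did not, and Slc7a11, Srxn1, Txnrd1 and Gclm were not called under either.

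Around them, Nfe2l2 was lower at the Tumor 2 Border (-1.31), the only call among 19 NRF2 regulators and other targets. Of 16 iron genes 4 were lower, Lcn2 (-2.98), Hp (-2.18), Fbxl5 (-1.97) and Slc11a1 (-1.03), and 1 was higher, Ltf (1.96). Of 19 glutathione and thioredoxin genes, Gsto1 was higher (2.69) and Prdx5 (-1.02) and Msrb1 (-0.99) were lower. Of 7 zinc genes, the importer Slc39a1 was higher (2.18). Of 6 NADPH oxidase genes 1 was lower and 0 higher, as in Tumor 1, with TMM factors and with library totals. With library totals Prdx5, Msrb1 and Slc11a1 no longer passed. The counts became 2 higher and 1 lower for NRF2, 2 and 3 for iron, and 3 and 0 for glutathione and thioredoxin genes. On that scale 10.8% of all genes were called higher, and 175 of 6362 were called lower. Early-response and heat-shock genes went the other way than in Tumor 1, with 13 of 19 lower and 0 higher, and a sum of 216 of 10000 UMIs at the Border against 405, 409 and 410 in the arrays. Markers of C1q macrophages made up 3.62 of 10000 UMIs in the Border's neutrophil-like cells and 1.25, 0.669 and 1.37 in the arrays. Markers of alveolar macrophages, the class with the most Mt1, made up 3.17 against 1.55, 1.15 and 0.917, and those of the Retnlg type 119 against 290, 243 and 247. The part of these in the result was not tested.

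**Figure D4:**
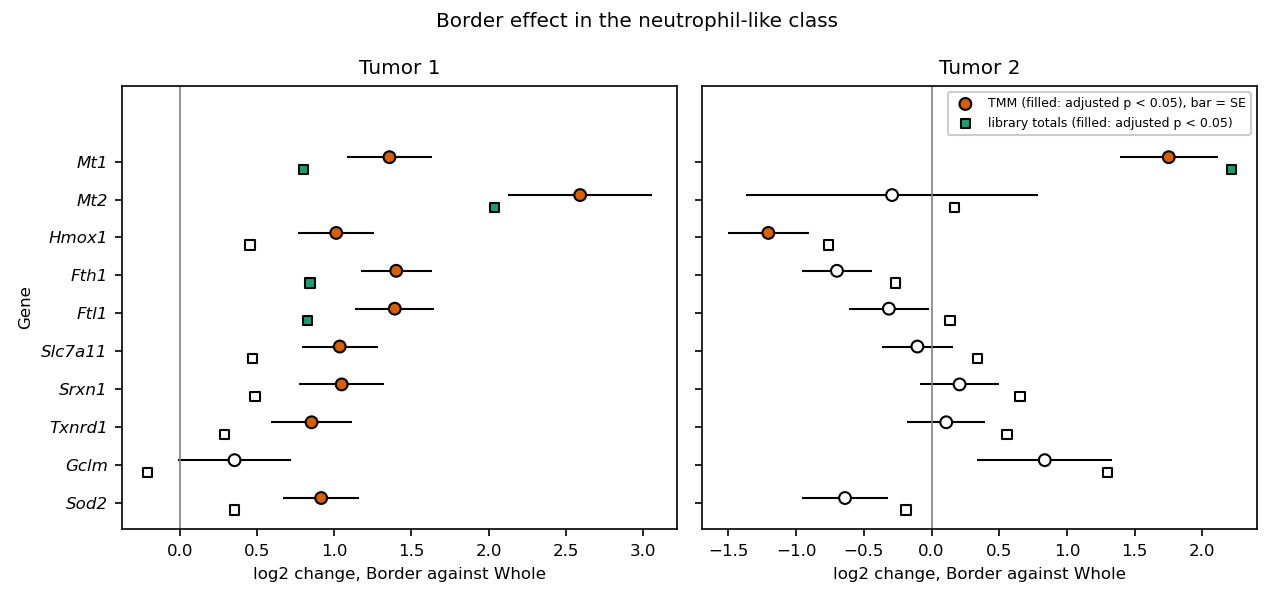
Log2 changes of each gene at the Border against Whole arrays in neutrophil-like cells of Tumor 1 (left) and Tumor 2 (right), with TMM factors (circles, bars are SE) and with library totals (squares), filled where the adjusted p is under 0.05. With TMM factors 9 genes rise in Tumor 1, while in Tumor 2 Mt1 rises and Hmox1 falls.

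The difference between the tumors was tested itself, as the change in Tumor 1 minus that in Tumor 2. Hmox1 (2.22 ± 0.39 SE, adjusted p = 1.95e-05), Fth1 (2.10 ± 0.35, adjusted p = 8.26e-06), Ftl1 (1.71 ± 0.40, adjusted p = 0.00179), Sod2 (1.55 ± 0.41, adjusted p = 0.0058) and Slc7a11 (1.14 ± 0.37, adjusted p = 0.0306) passed in edgeR. That is 5 of 10 genes, where 8.46% of all genes were called higher. The Slc7a11 call was lost without array 3 of Tumor 1 or without array 1 or array 3 of Tumor 2. Mt1, which was higher at both Borders, had a difference of -0.39 ± 0.47 (adjusted p = 0.641). With only cells of at least 500 genes 0 of the 10 passed in edgeR, with adjusted p from 0.137 to 0.531 for these 5 and differences of 0.99 to 1.88. With library totals Hmox1 (1.21) and Fth1 (1.11) passed, Ftl1 (0.69), Sod2 (0.54) and Slc7a11 (0.13) did not, Mt1 passed with a larger change in Tumor 2 (-1.42), and all calls went from 538 higher and 257 lower to 189 and 1430, which is 2.97% and 22.5% of all genes. Of the 19 early-response and heat-shock genes 18 differed in the same direction, and their part was not tested.

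The Mt1 UMIs of the neutrophil-like class lay in few cells, at the Border and in the Whole arrays. At the Tumor 1 Border, 17 of 427 neutrophil-like cells had 10 or more Mt1 UMIs, up to 85 in a cell, and these held 74.3% of the 545 Mt1 UMIs. In the Whole arrays of Tumor 1 there were 3 of 148, 5 of 320 and 2 of 149 such cells, with 33.3%, 51.7% and 30.6% of the Mt1 UMIs. At the Tumor 2 Border 3 of 105 cells held 66.7% of 78 Mt1 UMIs, and in its arrays there was 1 such cell, in array 3. Thus the share of UMIs in cells of 10 or more was higher at both Borders than in any array of the same tumor. The 5% of cells with the most Mt1 held 81.3% of its UMIs at the Tumor 1 Border and 56.5%, 78.3% and 64.0% in the arrays, and 85.9% at the Tumor 2 Border against 64.3%, 100% and 82.4% in its arrays, which held 14, 4 and 51 Mt1 UMIs. The 100% of array 2 was fixed by its counts, since 3 cells held its 4 UMIs and 8 cells make up its top 5%.

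The share of cells with any Mt1 UMI did not follow the sum in Tumor 1. It was 14.1% (exact 95% interval 10.9 to 17.7%) at the Border and 26.4%, 15.6% and 23.5% in the arrays. With each cell thinned to 1000 UMIs, which left 389 of the 427 cells at the Border and 134 of 148, 290 of 320 and 139 of 149 in the arrays, the shares were 11.6% at the Border and 17.9%, 8.28% and 13.7% in the arrays, so the Border lay among them. In Tumor 2 the shares were 15.2% at the Border and 11.6%, 1.92% and 9.25% in the arrays, and 10.5% against 9.09%, 5.56% and 4.11% after thinning. Thinning left 95 of 105 Border cells there and 77 of 86, 18 of 156 and 219 of 227 in the arrays, so the value of array 2 is 1 of 18 cells.

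The cells with 10 or more Mt1 UMIs were well inside the neutrophil-like class. At the Tumor 1 Border they had a median of 10 neutrophil markers and 1 macrophage marker detected, at a median of 4599 UMIs, and 10 of the 17 also had an Mt2 UMI. At the Tumor 2 Border the medians were 9 neutrophil markers and 0 macrophage markers at 3277 UMIs. No such cell lay near the class boundary in any library. Doublets were not called, and these cells held more UMIs than the other neutrophil-like cells of their library, whose medians were 2182.5 and 1790 at the Borders.

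**Figure D5:**
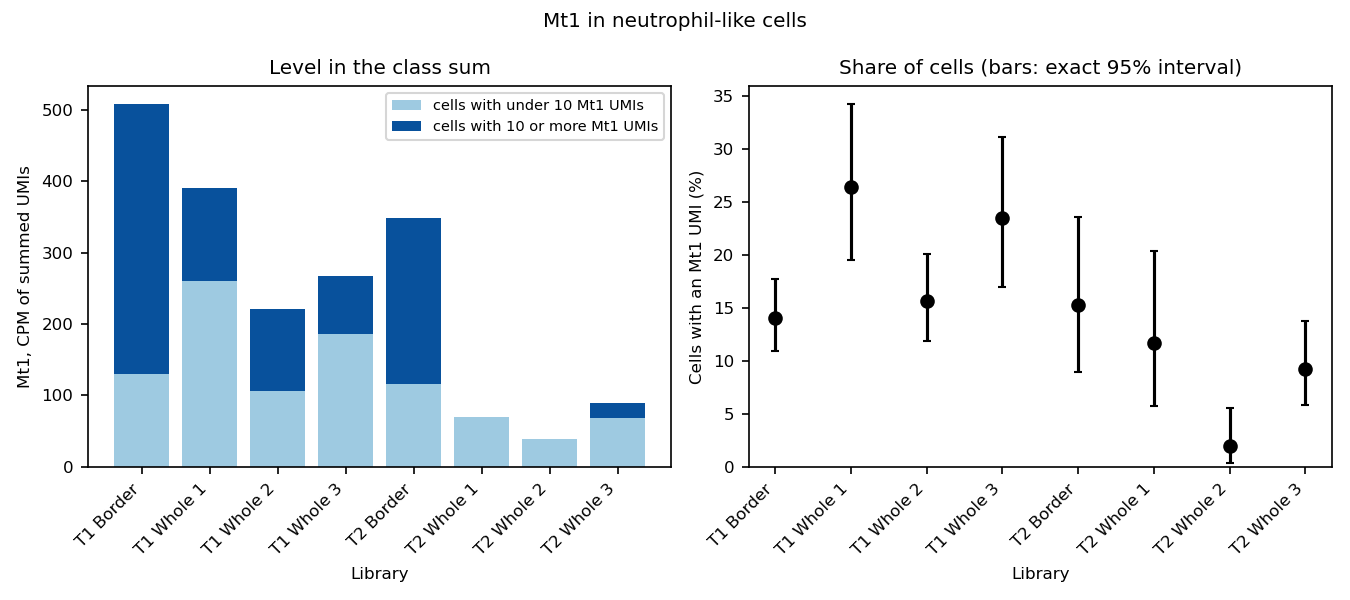
Mt1 in neutrophil-like cells of each library, as CPM of the class sum split by whether a cell has 10 or more Mt1 UMIs (left, stacked bars), and as the share of cells with an Mt1 UMI (right, exact 95% binomial intervals). The Border bars of both tumors are mostly dark, with 74.3% and 66.7% of the UMIs in 17 and 3 cells. The shares of cells at the Borders, 14.1% and 15.2%, have intervals that overlap those of some but not all Whole arrays.

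Mt2 was scarce in neutrophil-like cells. At the Tumor 1 Border its 81 UMIs lay in 17 of 427 cells, and in the arrays its 15, 8 and 6 UMIs lay in 7 of 148, 6 of 320 and 5 of 149 cells, too few to compare its spread over cells with that of Mt1. At the Tumor 1 Border, Fth1, Slc7a11 and Hmox1 were less concentrated than Mt1, while Srxn1 and Gclm came nearer to it. Fth1 was found in all 427 neutrophil-like cells of the Tumor 1 Border, and the top 5% of cells, 22 in number, held 14.6% of its UMIs. For Slc7a11 these shares were 64.4% of cells, and 29.0% of UMIs in the top 22 cells, against cell shares of 43.9%, 47.2% and 47.7% in the arrays. After thinning, Slc7a11 was found in 49.1% of cells at the Border and 33.6%, 36.6% and 28.1% in the arrays. Hmox1 was found in 54.3% of cells at the Border and 35.8%, 37.5% and 38.9% in the arrays, and in 41.4% against 23.9%, 27.2% and 24.5% after thinning, and its top 22 Border cells held 41.2% of its UMIs. Sod2 was found in 52.5% of Border cells and 35.1 to 45.6% in the arrays (thinned 34.7% against 28.1 to 29.0%), and Ftl1 in 94.1% against 82.6 to 89.7% (thinned 88.7% against 66.4 to 76.6%). For these 4 genes the share of cells was higher at the Border as well as the sum. Txnrd1 was found in 52.7% of Border cells, among the arrays at 49.3 to 55.9%, and after thinning in 39.8% against 33.6 to 41.0%. Srxn1 was found in 19.0%, among the arrays at 18.1 to 20.9%, and after thinning in 12.9% against 9.35 to 12.7%. The top 22 Border cells held 66.8% of the Srxn1 and 71.6% of the Gclm UMIs, against 81.3% for Mt1. In array 1 of Tumor 1 Whole the top 5% held 64.0% and 65.2%, above Mt1 at 56.5%. In array 2 they held 63.6% and 64.8%, below Mt1 at 78.3%. In array 3 they held 56.1% and 71.2%, on either side of Mt1 at 64.0%. T, NK or innate lymphoid-like cells had a Slc7a11 UMI in 0 of 136 cells, and an Hmox1 UMI in 5.15%.

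Within the types of neutrophil-like cells, fewer genes passed. In the Siglec-F type of Tumor 1, Ftl1 (1.16), Fth1 (1.11), Mt1 (1.07), Hmox1 (1.00) and Slc7a11 (0.95) were higher at the Border, 5 of 10 genes where 4.01% of all genes were called higher, and 0 passed with library totals, on which 1.46% of all genes were called higher and all calls went from 219 higher and 43 lower to 80 and 209. Mt1 in these cells was 514 CPM at the Border and 375, 294 and 309 CPM in the arrays. In the Retnlg type of Tumor 1, Mt2 (4.92), Mt1 (1.51), Fth1 (1.42), Ftl1 (1.24) and Sod2 (1.05) were higher, 5 of 10 genes where 5.08% of all genes were called higher, and Mt2 and Fth1 passed with library totals, where 1.78% of all genes were called higher and the split went from 222 and 38 to 78 and 205. Mt2 there rests on 46 UMIs at the Border and 2 in the arrays, a ratio of UMI shares of 24.8 with an exact 95% counting interval of 6.49 to 211. Mt1 there was 452 CPM at the Border and 460, 48.4 and 208 CPM in the arrays, so that the Border did not lie above all arrays. The Mt1 call there was lost without array 2 (adjusted p = 0.093, edgeR), that of Ftl1 without array 1, and that of Sod2 without array 1 or array 3. Over all 10 alternatives, the Mt1 call there held in 5, that of Ftl1 in 7 and that of Sod2 in 2. Of the 19 early-response and heat-shock genes 9 were also higher at the Border in each type, and 7 in the Siglec-F and 8 in the Retnlg type with library totals. In the Retnlg type they made up 435 of 10000 UMIs at the Border and 332, 352 and 408 in the arrays. Their part in these results was not tested.

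In the Retnlg type of Tumor 2, Mt1 was higher (2.37 ± 0.54 SE, adjusted p = 0.00855, edgeR), at 393 CPM at the Border against 70.8, 30.8 and 63.7 CPM. This call was lost with DESeq2 (log2 change 2.43, adjusted p = 0.219). Hmox1 was lower (-1.41 ± 0.37, adjusted p = 0.0208), at 382 CPM against 921, 648 and 834 CPM. These are 1 of 10 genes in each direction, where 2.29% of all genes were called higher and 3.16% lower, and the split went from 100 and 138 to 227 and 70 with library totals. There Hmox1 did not pass (-1.05, adjusted p = 0.0541), nor without array 1 (adjusted p = 0.0639) or array 3 (adjusted p = 0.071). The difference between the tumors in this type passed for Fth1 (1.96) and Hmox1 (1.95), 2 of 10 genes where 5.37% of all genes were called higher, and for 0 with library totals. Without array 2 of Tumor 1, 4 of the 10 passed. In the Retnlg type of Tumor 2, markers of alveolar macrophages, the class with the most Mt1, made up 3.01 of 10000 UMIs at the Border and 1.57, 1.03 and 0.928 in the arrays, and those of C1q macrophages 3.99 against 1.11, 0.719 and 1.31. Early-response and heat-shock genes made up 227 against 409, 384 and 412, with 10 of 19 called lower, and 15 of 19 were called higher in the difference between the tumors. The part of these in the results was not tested. The Siglec-F type could not be compared in Tumor 2, whose arrays held 1 to 3 such cells.

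Enough C1q macrophage-like cells were found at the Tumor 2 Border (131 cells) and in its arrays (25, 38 and 45). The levels of both metallothionein genes were lower at the Border, and only the change of Mt2 passed. Mt2 was 126 CPM at the Border and 427, 368 and 304 CPM in the arrays, below all 3, with a log2 change of -1.62 ± 0.42 (SE, adjusted p = 0.0292, edgeR). Mt1 was 533 CPM against 1171, 706 and 1173 CPM, below all 3 too, with -1.05 ± 0.37 (adjusted p = 0.223). Mt2 was the only 1 of the 10 genes called, where 0.422% of all genes were called lower. Its call was lost in 6 of 10 alternatives, among them library totals and the fits without array 1 or without array 3. Fth1 at 10505 CPM (arrays 14717 to 15322), Txnrd1 at 578 CPM (895 to 1105) and Sod2 at 165 CPM (173 to 195) were also below the arrays and did not pass. Srxn1 at 328 CPM (204 to 300) lay above all arrays and did not pass, and the other 4 genes lay within. Early-response and heat-shock genes made up 244 of 10000 UMIs at the Border and 286, 311 and 312 in the arrays. Markers of alveolar macrophages made up 1.97 against 4.09, 1.84 and 3.84, and those of C1q macrophages 386 against 245, 371 and 275. The part of these in the result was not tested. Thus Mt1 was higher at the Border of Tumor 2 in neutrophil-like cells and lower there in level in C1q macrophage-like cells; this difference between the classes was not tested.

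Summed over all cells of a library, 9 of 10 genes were higher at the Tumor 1 Border, where 9.96% of all genes were called higher, led by Fth1 (1.90 ± 0.17 SE, adjusted p = 5.32e-07, edgeR). Fth1 was 33519 CPM at the Border and 13014, 12894 and 13310 CPM in the arrays, far above all 3. In such sums a larger share of cells of a type and more RNA per cell cannot be told apart, and neutrophil-like cells made up 68.9% of the kept cells at this Border and 33.0%, 55.7% and 34.4% in the arrays. Of the 19 early-response and heat-shock genes 17 were higher here too, and 12 with library totals, with 399 of 10000 UMIs at the Border against 170, 211 and 200.4 in the arrays, and their part in the result was not tested. With library totals Fth1 (1.36), Ftl1 (1.21), Slc7a11 (1.11) and Sod2 (0.84) passed, and all calls went from 1119 higher and 940 lower to 544 (4.84% of all genes) and 2517.

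At the Tumor 2 Border, Mt2 (-2.27 ± 0.27, adjusted p = 0.000103), Mt1 (-1.18 ± 0.23, adjusted p = 0.00791) and Fth1 (-0.71 ± 0.19, adjusted p = 0.0455) were lower over all cells, 3 of 10 genes where 2.16% of all genes were called lower. Mt2 was 107 CPM at the Border and 425, 483 and 463 CPM in the arrays, and Mt1 431 against 940, 796 and 868 CPM, both below all 3. Alveolar macrophage-like cells, the class with the most metallothionein, numbered 9 of 506 kept cells there and 13 of 328, 25 of 368 and 29 of 616 in the arrays. C1q macrophage-like cells, which had more Mt1 than neutrophil-like cells, went the other way, with 131 cells at the Border and 25, 38 and 45 in the arrays. Early-response and heat-shock genes made up 209 of 10000 UMIs over all cells at the Border and 293, 311 and 321 in the arrays, and the part of these in the result was not tested. Neutrophil-like cells made up 20.8% against 26.2%, 42.4% and 36.9%. The direction of Mt1 over all cells was thus the opposite of that in neutrophil-like cells. With library totals Mt1 and Mt2 passed and Fth1 did not, and the Fth1 call was also lost without any one array (adjusted p = 0.0503 to 0.111). On that scale all calls went from 115 higher and 243 lower to 240 and 189 (1.68% of all genes).

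The mice themselves differed. Between the Whole arrays of Tumor 2 and Tumor 1, neutrophil-like cells differed in 6 of 10 genes, where 22.0% of all genes were called higher and 21.9% lower. Srxn1 (2.04 ± 0.22 SE, adjusted p = 5.22e-12), Slc7a11 (1.91 ± 0.19, adjusted p = 3.73e-13), Fth1 (1.31 ± 0.18, adjusted p = 6.03e-09), Hmox1 (1.21 ± 0.19, adjusted p = 4.39e-07) and Txnrd1 (0.87 ± 0.20, adjusted p = 0.000381) were higher in Tumor 2, in edgeR. Mt1 was lower (-1.11 ± 0.28, adjusted p = 0.000724). Slc7a11 was 1802, 1233 and 1486 CPM in the arrays of Tumor 2 and 674, 842 and 579 CPM in those of Tumor 1, with no overlap. Srxn1 was 574, 392 and 395 against 228, 208 and 138 CPM, and Mt1 was 69.9, 38.2 and 89.9 against 390, 221 and 268 CPM, again with no overlap. Txnrd1 ranges overlapped, at 449 to 978 and 573 to 824 CPM.

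With library totals the median of all genes went from -0.28 to -1.13, and all calls from 1402 higher and 1396 lower to 707 and 3575. On it, where 11.1% of all genes were called higher and 56.2% lower, Slc7a11 (1.08), Srxn1 (1.21) and Fth1 (0.49) stayed higher. Hmox1 (0.38) and Txnrd1 (0.03) did not pass, and Mt1 (-1.96), Ftl1 (-0.57), Sod2 (-0.50) and Gclm were lower. With only cells of at least 500 genes, Fth1 and Txnrd1 no longer passed. There 3 of the 10 were higher and 1 lower, where all calls on 6497 genes were 1134 higher and 1152 lower. The neutrophil types differ between the tumors, since the Tumor 2 arrays held 85, 145 and 218 Retnlg-type cells and 1, 1 and 3 of the Siglec-F type. Within the Retnlg type, an alternative added after seeing the data, Srxn1 (1.52), Slc7a11 (1.42) and Fth1 (0.99) were higher and Mt1 (-1.30) lower, 4 of 10 genes where 37.0% of all genes were called. The Mt1 call there was lost without array 1 of Tumor 1 (adjusted p = 0.507) and without array 2 of Tumor 2 (adjusted p = 0.0877), and with DESeq2 (-1.38, adjusted p = 0.256). With library totals 2 of the 10 were higher and 3 lower, Mt1 (-1.99) among the latter. All calls on the 4373 genes tested went from 878 higher and 738 lower to 461 and 1739, so most calls were lower on that scale. Fth1 did not pass with library totals (0.33, adjusted p = 0.118, edgeR), nor in cells with at least 500 genes (0.54, adjusted p = 0.276, edgeR). Of the 19 early-response and heat-shock genes 13 were higher and 3 lower within this type, and their part in the result was not tested.

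Over all neutrophil-like cells, the lists around these genes were called in both directions, as were all genes (22.0% higher and 21.9% lower). Of 16 iron genes 7 were higher in Tumor 2, led by Lcn2 (3.39) and Fbxl5 (3.36), and 5 lower. Of 19 glutathione and thioredoxin genes 9 were higher, among them the glutathione synthetase Gss (2.70), and 4 lower, and of 19 NRF2 regulators and other targets 8 were higher, among them Nfe2l2 (2.50), and 1 lower. Of 6 NADPH oxidase genes 3 were higher and 0 lower. Of 7 zinc genes 3 were lower, the transporters Slc30a5 (-3.97), Slc39a6 (-3.10) and Slc39a1 (-1.90). With library totals the counts became 4 higher and 7 lower for iron, 3 and 10 for glutathione and thioredoxin, 5 and 8 for NRF2, 1 and 3 for NADPH oxidase and 0 and 6 for zinc genes, where 11.1% of all genes were higher and 56.2% lower, so the balance of the first 4 lists turned with the scale. Of the 19 early-response and heat-shock genes 15 were higher and 1 lower, led by Fosb (6.73). Markers of alveolar macrophages made up 1.55, 1.15 and 0.917 of 10000 UMIs in the neutrophil-like cells of the Tumor 2 arrays and 6.77, 5.69 and 6.98 in those of Tumor 1, lower where Mt1 was lower, and the part of these in the result was not tested. The tumors also differ in mouse and sex, which cannot be told apart from the tumor.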

How the data were processed

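Single cells from 2 KP mouse lung tumors were profiled by Seq-Well in 8 libraries. The tables the authors deposited hold UMI counts per gene and barcode, not normalized. Per the submitters' processing notes, bcl2fastq 2.17.1.14, STAR 2.5.2b and the mm10 build were used. How strand and reads of gene copies were treated is not given in the sources used here.

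Barcodes with at least 200 genes were kept (3894 of 4343, 449 removed), with no limit on mitochondrial UMIs, which reached 91.5% in a kept cell. Doublets were not called, and no cell type annotation was used. Not every class is reported here. Cells were assigned to the class with the largest share of its markers detected, given at least 2 of them, and counts were summed per class and library where at least 10 cells were present. All cells of a library were summed as well. The 10 genes, the marker lists and the gene lists were chosen with earlier results of these data known.

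Sums were fitted with edgeR 4.0.16 (R 4.3.3), with TMM factors, filterByExpr, glmQLFit and glmQLFTest, and Benjamini-Hochberg adjustment over all genes tested (threshold 0.05). SE is the absolute log2 change divided by the square root of F. Border and Whole were compared within each tumor in 1 fit over all libraries with the class, and the difference between the tumors as an interaction. Classes were compared with the library as a block. The fits were tested on simulated data. Other genes named are members of the lists past the threshold, at most 5 per list and direction. Patterns most like Mt1, Fth1, Slc7a11 and Hmox1 are the 3 genes of at least 500 UMIs with the highest Pearson r of log2(CPM + 10) over 14 classes.

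Shares of cells carry exact 95% Clopper-Pearson intervals and levels exact Poisson intervals, both for counting error only, and a count of 0 is given as a limit of 3 counts. Cells were thinned to 1000 UMIs to compare shares (Python 3.11.15, scipy 1.17.1). Alternatives were library totals, RLE factors, DESeq2 1.42.0, no filter on low counts, cells of at least 500 genes, a stricter gate of 3 markers, at most 25% mitochondrial UMIs, each library left out, a replicate block, no library block, and arrays summed.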

Additional observations from a re-analysis of the deposited data

Results flagged for a closer look

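In neutrophil-like cells, 5 genes changed differently at the Border of the tumors, by the interaction test in edgeR of Tumor 1 minus Tumor 2. The differences in log2 change were 2.22 for Hmox1, 2.10 for Fth1, 1.71 for Ftl1, 1.55 for Sod2 and 1.14 for Slc7a11. With library totals Hmox1 and Fth1 still passed and Mt1 passed in the other direction (-1.42), and with only cells of at least 500 genes 0 of the 10 passed. The Slc7a11 call was lost without array 3 of Tumor 1 or without array 1 or array 3 of Tumor 2. No explanation was tested, and tumor and mouse cannot be told apart.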

How the results depend on the processing

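Counts are of the 10 genes past the threshold. With library totals they went from 9 to 4 (Tumor 1 Border, neutrophil-like), 2 to 1 (Tumor 2), 5 to 3 (difference between tumors), 5 to 0 (Tumor 1, Siglec-F type), 5 to 2 (Tumor 1, Retnlg type), 2 to 1 (Tumor 2, Retnlg type), 2 to 0 (difference, Retnlg type), 1 to 0 (C1q macrophage-like), 9 to 4 (Tumor 1, all cells) and 4 to 0 (Siglec-F against Retnlg type). With cells of at least 500 genes they were 2, 1 and 0 for the first 3 of these, 1 in both tumors and 0 for the difference in the Retnlg type, 3 for neutrophil-like against C1q macrophage-like and 1 for Siglec-F against Retnlg type. With DESeq2 they were 2 in both types in Tumor 1, 1 in the Retnlg type of Tumor 2, 0 in C1q macrophage-like cells and 2 for alveolar against C1q macrophage-like. RLE factors gave 3 in the Retnlg type of Tumor 1 and 0 in C1q macrophage-like cells. Without the filter on low counts there were 1 in the Retnlg type of Tumor 2, 0 in C1q macrophage-like cells, and 5 and 1 in all cells of Tumor 1 and Tumor 2.

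The stricter gate gave 2 for Siglec-F against Retnlg type and 2 for dendritic-like cells, and at most 25% mitochondrial UMIs 2 for the former. Without the library block, neutrophil-like against C1q macrophage-like gave 3 and Siglec-F against Retnlg type 0, and with arrays summed 3 and 2. Leaving out each library in turn gave 3 to 6 in the Retnlg type of Tumor 1, 1 to 2 in that of Tumor 2, 2 to 4 for their difference, 0 to 1 in C1q macrophage-like cells, 3 to 6 for neutrophil-like against C1q macrophage-like, 0 to 2 for Siglec-F against Retnlg type and 2 to 4 for alveolar against C1q macrophage-like. With library totals, Ftl1 (-0.57) and Sod2 (-0.50) reversed in Tumor 2 against Tumor 1. Apart from the change of scale, the causes were not tested.

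Over these alternatives, all genes called at the Border in neutrophil-like cells ranged from 255 to 1220 in Tumor 1 and from 221 to 865 in Tumor 2, and in C1q macrophage-like cells from 1 to 52. With a replicate block, Tumor 2 against Tumor 1 called 6 of the 10 genes in neutrophil-like cells and 4 in the Retnlg type, as without it. Same-numbered arrays correlated between -0.0164 and 0.0241 in their deviations, and differently numbered arrays between -0.0550 and 0.0277. Counting error weakens such correlations in sparse sums, so they cannot show whether same-numbered arrays shared more than a number. No paired analysis of Border against Whole was possible because the Border groups have only replicate 1. The Siglec-F type in Tumor 2, Gclm in 2 class contrasts, and Mt2 in neutrophil-like cells of Tumor 2 (3 UMIs at the Border) are limited by cells or UMIs.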
